A study of Bos taurus with 4 samples.

Results

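The 49 genes described here act in the DNA damage response and in DNA repair, and they were taken from the array by their platform gene symbol. Of these, 46 had at least 1 named probe, with 61 probes among them, and BRCA2, PARP2 and MSH3 were not analysed here. The brightest probe stood for each gene, and 43 of the 46 genes were bright enough to be tested, out of 11973 genes tested on the whole array. Cattle blastocysts, in which a trophectoderm shell surrounds a cavity and the inner cell mass that forms the fetus, were obtained by in vitro maturation, fertilisation and culture with oocytes of slaughterhouse ovaries. One group was sired with semen collected at 16 months of age and the other with semen collected at 12 months. Semen of 4 bulls was used, each collected at both ages, and no other treatment is named. Each of 4 arrays, labelled biological replicates, compared RNA of the 2 ages directly in its 2 channels. The 16-month RNA was in Cy3 on arrays 1 and 2 and in Cy5 on arrays 3 and 4, and the labels tie no bull to an array.

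Cells detect broken or damaged DNA through kinases that halt the cell cycle and mark the lesion, and separate pathways then repair it. Homologous recombination and end joining rejoin breaks across both strands, base and nucleotide excision replace damaged bases, mismatch repair corrects copying errors, and the Fanconi anaemia pathway releases crosslinked strands. Mature sperm repair DNA poorly, so that lesions carried by the sperm are handled after fertilisation by proteins and transcripts stored in the oocyte. The blastocyst has activated its own genome, and its transcripts reflect the embryo and not only the oocyte store.

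The question was whether repair transcripts differed between embryos of 16-month and of 12-month semen, and no repair gene did at the threshold used. In limma, 0 of the 43 tested genes passed an adjusted p of 0.05, and the smallest adjusted p among them was 0.969. The same held for the whole array, where 0% of 11973 genes and 0 of 30986 probes passed (4.12% of probes at an unadjusted p under 0.05), with a smallest adjusted p of 0.448. Leaving out array 3 or array 4 gave 43 and 383 calls over all probes, and the brightest probe of a repair gene was among 0 of them. With either of these left out, the spread in the fit came from arrays 1 and 2 alone, which share a dye orientation. With all arrays, 0 repair genes stood at an unadjusted p under 0.05, beside 4.28% of all genes. The latter were 2.04% higher in 16-month RNA and 2.25% higher in 12-month RNA. That 0 was not stable: 11 of 14 alternatives gave at least 1 such gene, with up to 5 without array 4, and H2AFX was among them in 8. The count without array 4 carries the limit on the spread given above. Values below are log2 ratios of 12 over 16 months. A negative value is higher in 16-month RNA and a positive value is higher in 12-month RNA. Of the repair genes, 18 were on the 16-month side and 25 on the 12-month side, while 49.6% of all genes were on the 16-month side. The split was 23 and 20 with median centring in place of loess, 24 and 19 without array 2, and 25 and 18 without array 3. Their median ratio was 0.011, and that of all genes was 0.0013. The median size of a ratio, without its sign, was 0.10 for repair genes and 0.10 for all genes. Apart from CHEK2, whose 16-month signals at the probe used were not above background, single genes ranged from -0.33 for XRCC2 to 0.21 for XPA.

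The fit of the main processing bounded the differences. The ratios of all 43 genes lay within 1.5-fold, as did 99.8% of all genes. The 95% confidence interval lay within 1.5-fold for 41 genes and within 2-fold for 43, and 0 intervals excluded 0. The median half-width of an interval was 0.29 on the log2 scale. These intervals do not cover the choice of processing. With mean in place of median pixels, the ratio of ERCC1 fell outside its interval of -0.25 to 0.36. The lowest bound was -0.79 for XRCC2 and the highest was 0.52 for CHEK2, against a 16-month signal not above background. In a mixed embryo, fewer cells of a type and less RNA per cell cannot be told apart.

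**Figure D1:**
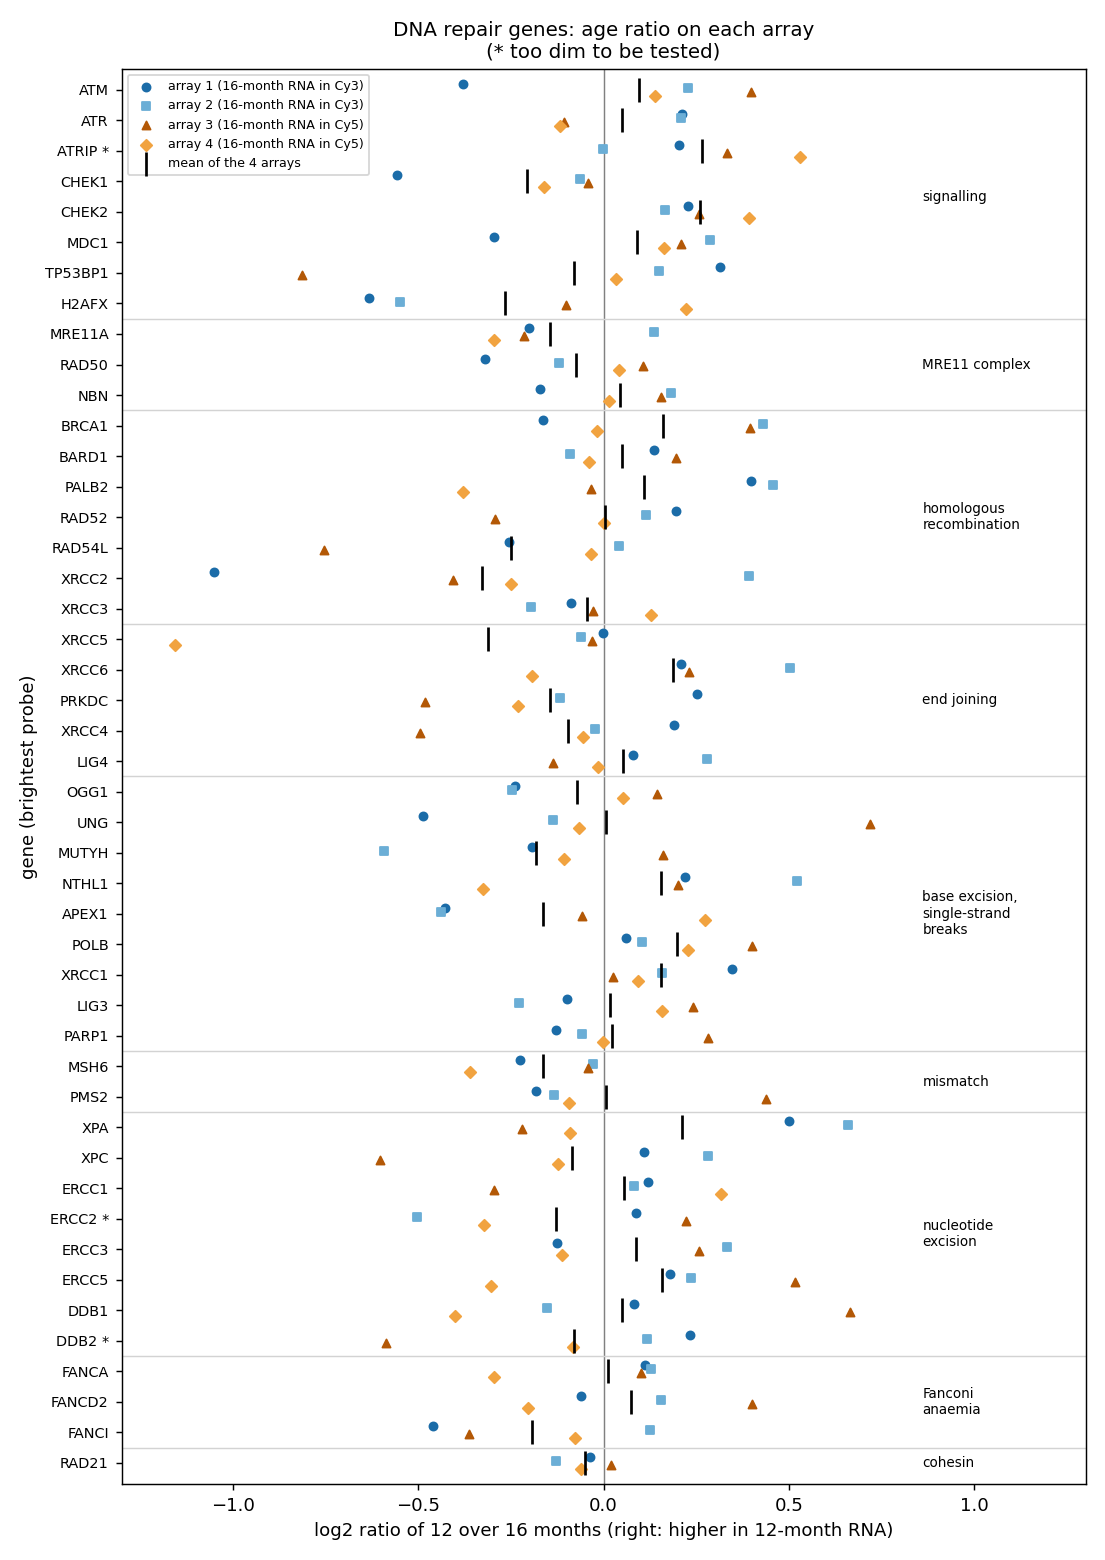
The log2 ratio of 12 over 16 months on the horizontal axis is shown for each of the 46 repair genes with a named probe, with 1 marker per array and a bar at the mean of the 4 arrays. Most genes have arrays on both sides of 0, with XRCC2 ranging from -1.05 to 0.39, UNG from -0.49 to 0.72, and XRCC5 reaching -1.16 on array 4.

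The arrays disagreed on the direction for most repair genes. Ratios fell on both sides of 0 in 37 genes and on 1 side on all 4 arrays in 6 genes, or 14.0%, beside 10.2% of all genes. CHEK1, XRCC5 and MSH6 were on the 16-month side on every array, as were 5.54% of all genes, and CHEK2, POLB and XRCC1 were on the 12-month side, as were 4.65%. Levels of the 2 ages, compared across arrays, did not overlap for 1 gene, CHEK2, and for 0.927% of all genes. The CHEK2 probe, also counted among the 6 genes, passed the filter through its 12-month signals alone. Its separation is therefore not independent of the filter. The SD of a ratio over the 4 arrays ran from 0.061 for RAD21 to 0.59 for XRCC2. The median repair gene ratio was -0.061, 0.11, 0.026 and -0.060 on arrays 1 to 4, and that of all genes was -0.0088, 0.024, -0.022 and 0.00053. Array 4 had 28 repair genes on the 16-month side and 15 on the 12-month side, while array 2 had 18 and 25. Across the 43 genes, which share each array's labelling, Pearson's r was 0.365 between arrays 1 and 2, -0.00213 between arrays 3 and 4, and -0.0725 to -0.169 between arrays of opposite dye orientation. Over all 11973 genes it was 0.346 between arrays 1 and 2 and -0.0828 between arrays 3 and 4.

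Repair transcripts were well detected. A signal was called above background where it was brighter than 95% of the 153 negative control spots in the same channel and array. Of the 43 tested genes, 37 were above background in all 8 channel signals, or 86.0%, while 73.8% of all genes were. BRCA1, BARD1, XRCC5, ERCC5, FANCA and CHEK2 were above it in only some signals. The CHEK2 probe used was above background on 0 of 4 arrays in 16-month RNA and on 4 of 4 in 12-month RNA, so it passed the filter through its 12-month signals alone. Another CHEK2 probe, lacking a usable spot on array 4, was above background at both ages on the other 3 arrays. ATRIP, the partner that recruits ATR, and ERCC2 and DDB2, of nucleotide excision repair, reached it in fewer than 4 signals and were not tested. Their mean ratios were 0.27, -0.13 and -0.08, from signals near the detection limit.

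The first group was damage signalling, with 7 tested genes, 3 on the 16-month side and 4 on the 12-month side, and a median ratio of 0.049. CHEK1, the checkpoint kinase that acts downstream of ATR, had a log2 signal of 11.69, 11.97, 11.92 and 11.50 in 16-month RNA of arrays 1 to 4, against 11.14, 11.90, 11.88 and 11.34 in 12-month RNA. It was lower in 12-month RNA on every array, by ratios of -0.56, -0.064, -0.041 and -0.16, and its levels overlapped between the ages. Array 1 gave by far the largest difference, and the fitted ratio was -0.21 with an interval of -0.50 to 0.087, and -0.082 without array 1. CHEK2, the checkpoint kinase downstream of ATM, had a log2 signal of 6.67, 6.78, 6.86 and 6.61 in 16-month RNA of arrays 1 to 4, against 6.90, 6.95, 7.12 and 7.001 in 12-month RNA. At this probe all 12-month levels lay above all 16-month levels, yet the 16-month signals were not above background on any array. The measured ratios were 0.23, 0.17, 0.26 and 0.39. With the floor of detection in place of the 16-month signal, the mean of this probe was 1.11-fold higher in 12-month RNA. That value carries no error and is not a lower bound, and the fitted interval of -0.0027 to 0.52 included 0. The adjusted p of this probe in limma was 0.969. The fitted ratio of 0.26 depended on the processing, at 0.037 with mean in place of median pixels and 0.42 with a normexp offset of 10. This was the brightest CHEK2 probe measured on all arrays, EMBV3_28909, while EMBV3_39385, above background at both ages on arrays 1 to 3, gave 0.19, -0.11 and 0.071 there and a fitted ratio of 0.056.

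H2AFX, now called H2AX, encodes the histone variant that is phosphorylated around a break. Its log2 signal was 13.41, 13.40, 12.77 and 13.01 in 16-month RNA of arrays 1 to 4, against 12.78, 12.85, 12.67 and 13.23 in 12-month RNA. The ratios were -0.63, -0.55, -0.10 and 0.22, so that arrays 1 and 2 were higher in 16-month RNA, array 3 slightly so, and array 4 higher in 12-month RNA. The fitted ratio was -0.27, with an interval of -0.54 to 0.0094, and the dye coefficient of Cy5 over Cy3 was -0.33. The dye coefficient was therefore larger than the age coefficient. Of the other signalling genes, the ratio was 0.10 for ATM and 0.049 for ATR, the kinases at the head of the response, and 0.091 for the adaptor MDC1. TP53BP1, which favours end joining at breaks, stood at -0.079, with -0.81 on array 3 against 0.033 on array 4.

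The MRE11 complex senses and trims broken ends, and 2 of its 3 genes were on the 16-month side, with a median ratio of -0.073. MRE11A, now called MRE11, is its nuclease and had a log2 signal of 9.33, 9.49, 9.72 and 9.79 in 16-month RNA of arrays 1 to 4, against 9.13, 9.62, 9.51 and 9.50 in 12-month RNA. Its ratios were -0.20, 0.14, -0.21 and -0.30, with 3 arrays higher in 16-month RNA and overlapping levels. RAD50, the ATPase that bridges the ends, gave 10.89, 10.95, 11.08 and 10.97 in 16-month RNA of arrays 1 to 4, against 10.57, 10.83, 11.19 and 11.01 in 12-month RNA. Its ratios of -0.32, -0.12, 0.11 and 0.042 pointed to the 16-month side on arrays 1 and 2 and to the 12-month side on arrays 3 and 4, which follows the dye orientation. NBN, which brings ATM to the complex, had a ratio of 0.045.

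Homologous recombination had 7 tested genes, 3 on the 16-month side and 4 on the 12-month side, with a median ratio of 0.0048. XRCC2, which acts early in strand exchange, had the widest spread of the 43 tested genes. Its log2 signal was 10.49, 9.33, 9.58 and 10.005 in 16-month RNA of arrays 1 to 4, against 9.44, 9.73, 9.17 and 9.75 in 12-month RNA. The 16-month signal was far higher on array 1, less so on arrays 3 and 4, and lower on array 2, as shown by ratios of -1.05, 0.39, -0.41 and -0.25. The fitted ratio was -0.33, with an interval of -0.79 to 0.13, and turned to 0.032 without array 1. A second XRCC2 probe had a ratio of -0.24, from 0.094, 0.49, -1.43 and -0.12 on arrays 1 to 4. On array 3 its 12-month signal was not above background, so the size of that ratio is not exact. RAD54L, a motor protein of strand invasion, gave 8.56, 8.91, 9.12 and 8.79 in 16-month RNA of arrays 1 to 4, against 8.31, 8.95, 8.36 and 8.76 in 12-month RNA. One array, array 3, supplied most of its difference, with ratios of -0.25, 0.042, -0.75 and -0.033, and the levels overlapped. The fitted ratio was -0.25, and -0.070 without array 3. Of the others, BRCA1, which directs breaks to recombination, had a ratio of 0.16, its partner BARD1 0.051, and PALB2, which links BRCA1 to BRCA2, 0.11. RAD52, which anneals strands, was at 0.0048, and XRCC3, which also acts in strand exchange, at -0.046.

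End joining had 5 tested genes, 3 on the 16-month side, with a median ratio of -0.10. XRCC5 and XRCC6 encode Ku80 and Ku70, the subunits of the ring that binds a broken end, and their ratios had opposite signs, with neither past the threshold. XRCC5 had a log2 signal of 7.62, 8.21, 7.72 and 7.94 in 16-month RNA of arrays 1 to 4, against 7.62, 8.15, 7.69 and 6.79 in 12-month RNA. Arrays 1 to 3 were near equal between the ages, with ratios of -0.0019, -0.061, -0.032 and -1.16 on the 4 arrays. The 12-month signal of array 4 was not above background, so that its ratio there is not an exact level difference. Its fitted ratio was -0.31, and -0.032 without array 4, and -0.053 on all arrays with no background correction. XRCC6 had a log2 signal of 8.70, 8.54, 8.58 and 8.95 in 16-month RNA of arrays 1 to 4, against 8.91, 9.05, 8.81 and 8.75 in 12-month RNA. It was higher in 12-month RNA on arrays 1 to 3 and lower on array 4, with ratios of 0.21, 0.50, 0.23 and -0.19 and overlapping levels. PRKDC, the kinase recruited by Ku, had a ratio of -0.14. XRCC4, the scaffold of the ligase, stood at -0.10, and LIG4, the ligase that seals the break, at 0.051, while a second LIG4 probe gave -0.17. That second probe was at -0.68 on array 3, where its 12-month signal was not above background.

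**Figure D2:**
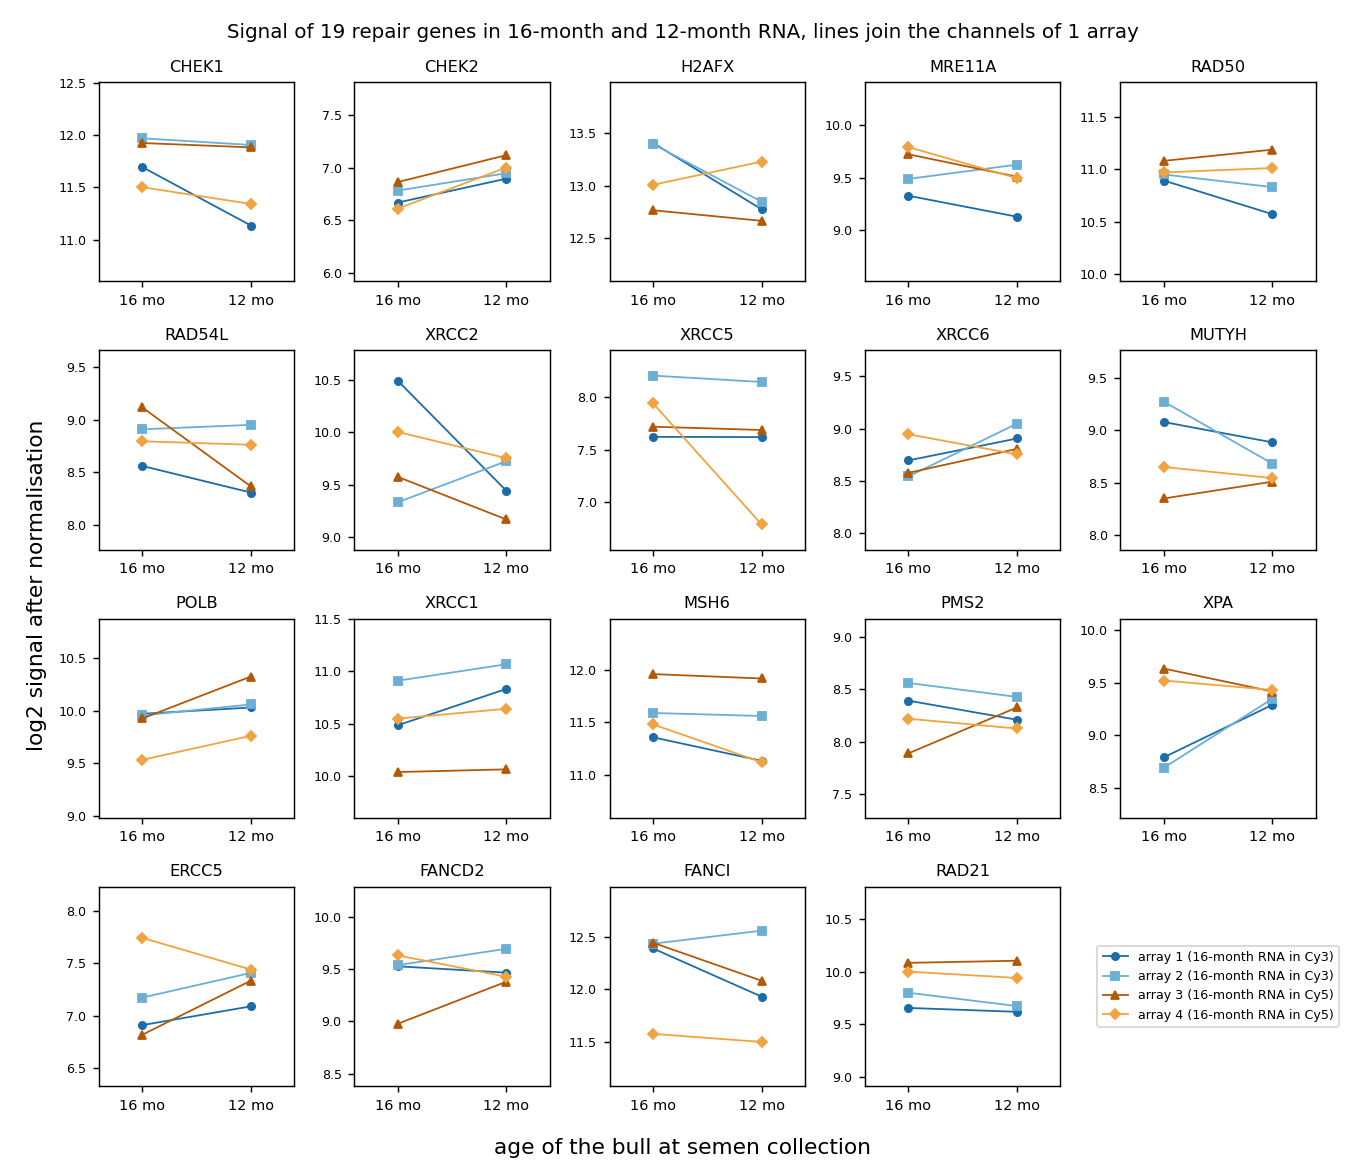
The log2 signal after normalisation of 19 repair genes is shown in 16-month RNA at the left and 12-month RNA at the right of each panel, with a line joining the channels of each array. The panels share 1 vertical span but not 1 position. CHEK2 is the gene whose 12-month points, from 6.90 to 7.12, all lie above its 16-month points, from 6.61 to 6.86 and not above background, and XRCC5 has a single steep line, for array 4.

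Base excision and single-strand break repair had 9 tested genes, 3 on the 16-month side and 6 on the 12-month side, with a median ratio of 0.019. MUTYH, the glycosylase that removes adenine paired with oxidised guanine, had a log2 signal of 9.08, 9.27, 8.35 and 8.65 in 16-month RNA of arrays 1 to 4, against 8.88, 8.68, 8.51 and 8.54 in 12-month RNA. Array 2 was much higher in 16-month RNA and array 3 higher in 12-month RNA, with ratios of -0.19, -0.59, 0.16 and -0.11. A second MUTYH probe had -0.13. POLB, the polymerase that fills the gap after excision, gave 9.97, 9.96, 9.93 and 9.53 in 16-month RNA of arrays 1 to 4, against 10.03, 10.06, 10.33 and 9.76 in 12-month RNA. Its ratios of 0.060, 0.10, 0.40 and 0.23 were all on the 12-month side, with levels that overlapped, and its fitted ratio was 0.20. The other 3 POLB probes gave 0.093, -0.033 and -0.061, of both signs. XRCC1, the scaffold of single-strand break repair, gave 10.48, 10.91, 10.04 and 10.55 in 16-month RNA of arrays 1 to 4, against 10.83, 11.07, 10.06 and 10.64 in 12-month RNA. It too was on the 12-month side on every array, with ratios of 0.35, 0.16, 0.026 and 0.094, the largest on array 1.

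Of the remaining excision genes, OGG1, the glycosylase of oxidised guanine, had a ratio of -0.072. UNG, which removes uracil from DNA, averaged 0.0070, but ranged from -0.49 on array 1 to 0.72 on array 3. NTHL1, a glycosylase of oxidised pyrimidines, had 0.15, and a second probe gave 0.24. APEX1, the endonuclease at base-free sites, had -0.16, but its second probe gave 0.0069. LIG3, the ligase that partners XRCC1, stood at 0.019, and PARP1, the sensor of strand breaks, at 0.023. None of these differed in limma at the adjusted threshold.

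Mismatch repair had 2 tested genes. MSH6, which recognises the mispaired base, had a log2 signal of 11.36, 11.59, 11.96 and 11.48 in 16-month RNA of arrays 1 to 4, against 11.13, 11.56, 11.92 and 11.12 in 12-month RNA. The ratios of -0.22, -0.029, -0.042 and -0.36 were all on the 16-month side, with the larger ones on arrays 1 and 4. PMS2, an endonuclease that nicks the strand to be corrected, gave 8.39, 8.56, 7.89 and 8.22 in 16-month RNA of arrays 1 to 4, against 8.21, 8.43, 8.33 and 8.13 in 12-month RNA. Its ratio was 0.0076, with 3 arrays on the 16-month side and array 3 at 0.44.

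Nucleotide excision repair had 6 tested genes, 1 on the 16-month side and 5 on the 12-month side, and a median ratio of 0.072. XPA, which verifies the lesion, had a log2 signal of 8.79, 8.69, 9.64 and 9.52 in 16-month RNA of arrays 1 to 4, against 9.29, 9.35, 9.42 and 9.43 in 12-month RNA. It was higher in 12-month RNA on arrays 1 and 2 and slightly lower on arrays 3 and 4, with ratios of 0.50, 0.66, -0.22 and -0.090. Its dye coefficient was 0.37 and its age coefficient 0.21. ERCC5, the nuclease XPG, gave 6.91, 7.17, 6.82 and 7.74 in 16-month RNA of arrays 1 to 4, against 7.09, 7.41, 7.33 and 7.44 in 12-month RNA. Arrays 1 to 3 were higher in 12-month RNA and array 4 was higher in 16-month RNA, with ratios of 0.18, 0.24, 0.52 and -0.30. The 16-month signal of ERCC5 on array 3 was not above background, so the size of its ratio there is not exact. XPC, which finds distorting lesions, had a ratio of -0.084 and ERCC3, a helicase that opens the DNA, 0.088. ERCC1, which makes the other cut with its partner, had 0.055, but -0.31 with mean in place of median pixels. DDB1, of the damage-binding ubiquitin ligase, averaged 0.049 from ratios of 0.082, -0.15, 0.66 and -0.40, and the spread between arrays far exceeded that average. A second ERCC1 probe was at -0.0014.

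The Fanconi anaemia pathway had 3 tested genes, with a median ratio of 0.011. FANCI and FANCD2 form the clamp that closes on damaged DNA once ubiquitin is attached. FANCI had a log2 signal of 12.39, 12.43, 12.44 and 11.57 in 16-month RNA of arrays 1 to 4, against 11.93, 12.56, 12.08 and 11.50 in 12-month RNA. Its ratios of -0.46, 0.12, -0.36 and -0.077 were higher in 16-month RNA on arrays 1, 3 and 4, and its fitted ratio was -0.19. FANCD2 gave 9.53, 9.54, 8.98 and 9.63 in 16-month RNA of arrays 1 to 4, against 9.47, 9.69, 9.38 and 9.43 in 12-month RNA. Its ratios were -0.061, 0.16, 0.40 and -0.20, and the fitted ratio was 0.073, of the opposite sign, with neither past the threshold. FANCA, of the core ligase complex, was at 0.011. RAD21, the cohesin subunit that closes the ring around sister chromatids, had the smallest spread of the 43 tested genes. It gave 9.66, 9.80, 10.09 and 10.002 in 16-month RNA of arrays 1 to 4, against 9.62, 9.67, 10.11 and 9.94 in 12-month RNA. Its ratios were -0.037, -0.13, 0.020 and -0.060.

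**Figure D3:**
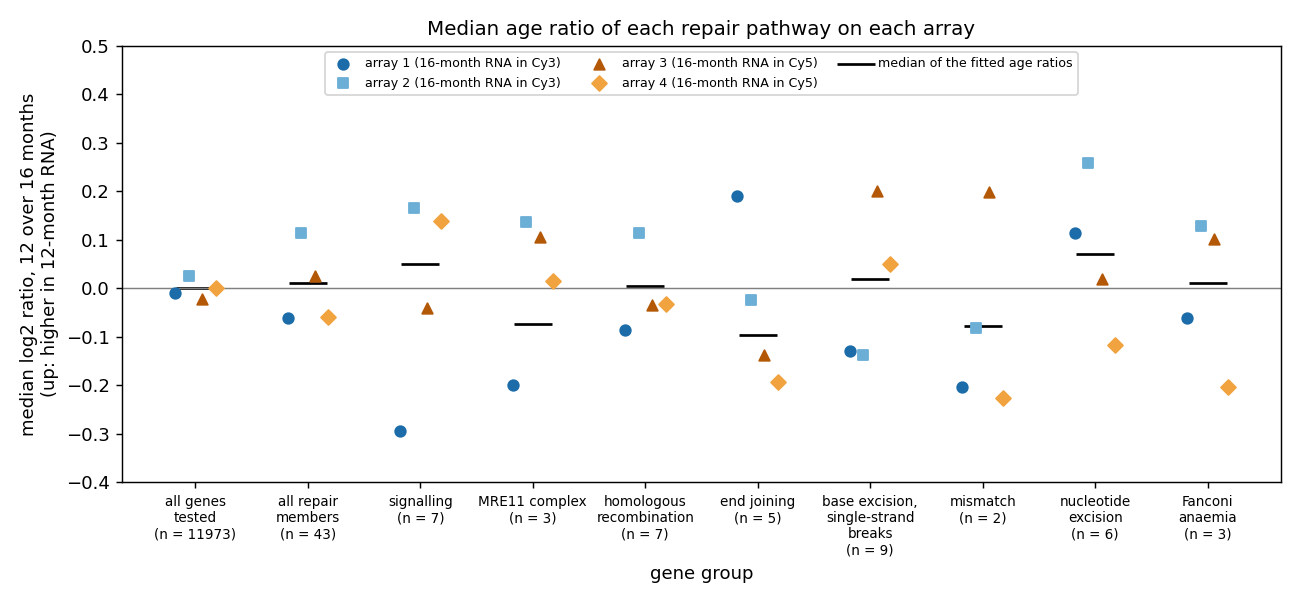
Median log2 ratio of 12 over 16 months of each repair pathway on the vertical axis, with 1 marker per array and a bar at the median of the fitted ratios. Pathway medians scatter around 0 on each array, for example -0.29, 0.17, -0.041 and 0.14 for damage signalling on arrays 1 to 4, against -0.0088, 0.024, -0.022 and 0.00053 for all genes.

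No pathway kept 1 direction on all 4 arrays. The signalling medians were -0.29, 0.17, -0.041 and 0.14 on arrays 1 to 4, those of homologous recombination -0.087, 0.11, -0.034 and -0.033, and those of end joining 0.19, -0.024, -0.14 and -0.19. Base excision and single-strand break repair had -0.13, -0.14, 0.20 and 0.051, with arrays 1 and 2 on the 16-month side and arrays 3 and 4 on the 12-month side. Nucleotide excision repair had 0.11, 0.26, 0.020 and -0.12.

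Repair genes and all genes had like shares of dye-related patterns. The dye coefficient was larger than the age coefficient in 24 of 43 genes, and in 56.4% of all genes. Ratios of arrays 1 and 2 lay on the opposite side of 0 from those of arrays 3 and 4 in 8 repair genes, and in 18.6% of all genes. The median size of the dye coefficient was 0.13 in repair genes and 0.12 in all genes. The part of the dye in any single ratio was not tested beyond this fit.

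**Figure D4:**
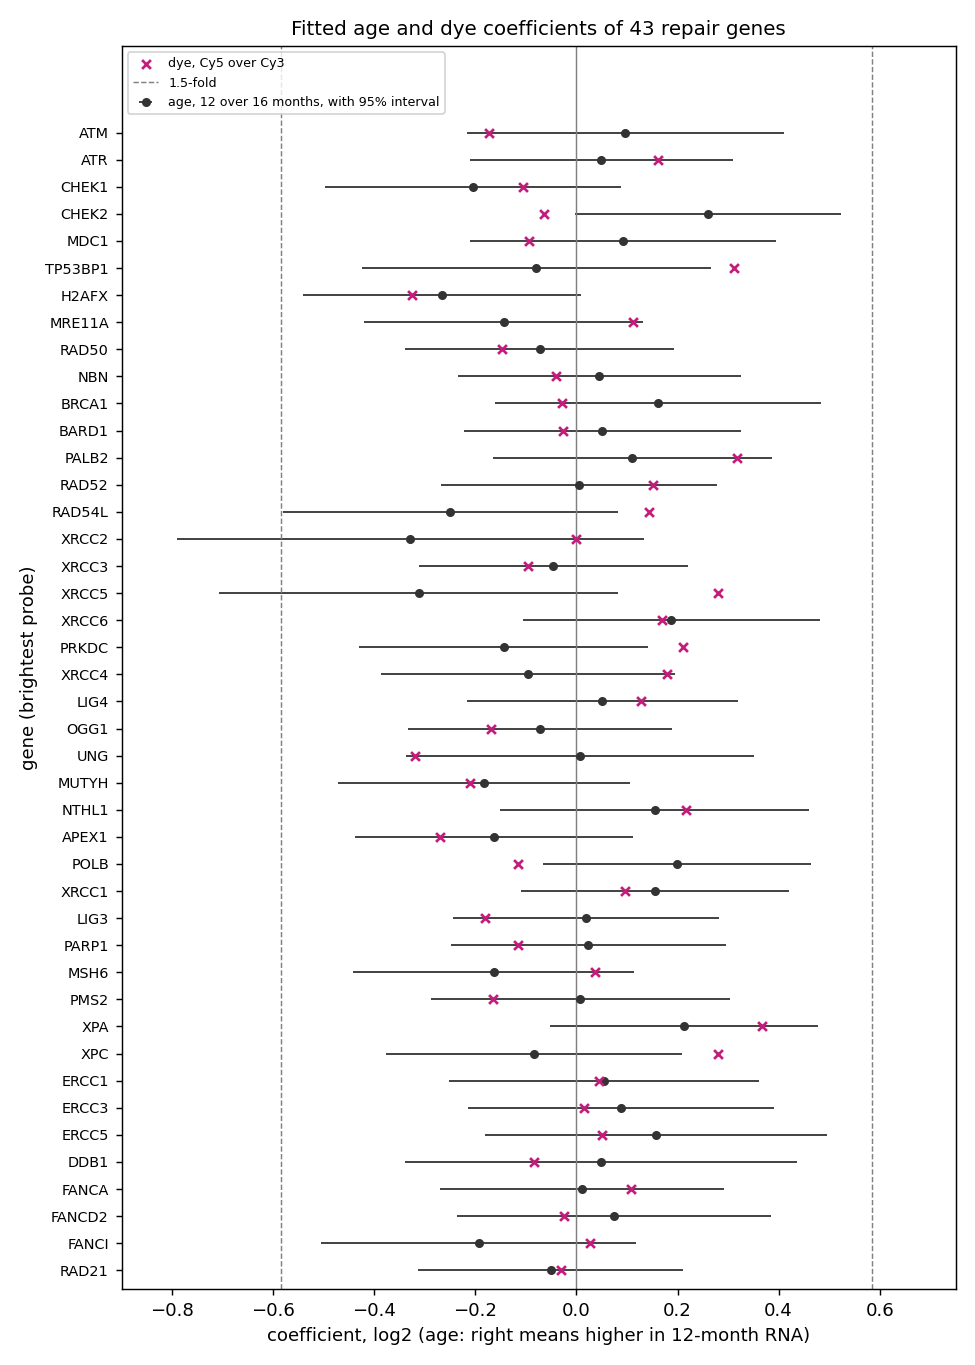
Fitted age coefficients, with 95% intervals, and dye coefficients of the 43 tested repair genes on the log2 scale, with dashed lines at 1.5-fold. Every interval crosses 0, and only those of XRCC2, at its lower end of -0.79, and XRCC5, at its lower end of -0.71, reach past 1.5-fold.

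Of 108 further repair and damage genes, 88 were tested, 43 on the 16-month side and 45 on the 12-month side, with a median ratio of 0.0048. In limma 0 of them passed the adjusted threshold, and 7, or 7.95%, stood at an unadjusted p under 0.05, beside 4.28% of all genes. Of these, 2 were on the 16-month side, beside 2.04%, and 5 on the 12-month side, beside 2.25%. In each group the gene with the smallest p is named. EXO1, a nuclease that lengthens single-stranded ends, had a ratio of 0.41 ± 0.51 (SD, n = 4). RAD1, of the checkpoint clamp, had 0.32 ± 0.30, and POLL, a gap-filling polymerase of end joining, -0.17 ± 0.25. NEIL2, a glycosylase of oxidised bases, had 0.47 ± 0.52. The 10 tested base excision genes outside the 49 were all on the 12-month side, while 49.6% of all genes were on the 16-month side. Ratios of these 10 ran from 0.011 to 0.47, with a median of 0.085, and only 1 gene had 1 sign on all 4 arrays. The medians of these 10 were 0.23, 0.27, 0.018 and -0.038 on arrays 1 to 4. For the base excision and single-strand break genes among the 49 they were -0.13, -0.14, 0.20 and 0.051. MLH3, of mismatch repair, had -0.21 ± 0.16, CETN2, a partner of XPC, 0.27 ± 0.46, FANCE, of the Fanconi core, -0.23 ± 0.39, and PDS5B, a cohesin regulator, 0.41 ± 0.45. Some of these genes were partly at background. RAD1 was above it on 2 of 4 arrays in 16-month RNA and 4 of 4 in 12-month RNA. MLH3 was above it on 4 and 1, and PDS5B on 3 and 4, in the same order.

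Facts of the whole series bear on these values as follows. Between 69.5% and 72.3% of probes were above background in Cy5, and between 62.7% and 66.6% in Cy3, while the SD of the ratios across genes was 0.29 to 0.41 per array, widest on array 3. Markers of the blastocyst were present, with 5 of 5 inner cell mass genes above background in all 8 channel signals and 7 of 8 trophectoderm genes. Their median ratios were 0.12 and -0.025. Of 10 cumulus or granulosa cell markers 6 were tested, with a median ratio of 0.095, from -0.43 for STAR to 0.55 for HSD3B1. Sperm and spermatid markers, 6 of 8 tested, had a median of 0.028, and only 3 were above background in all 8 channel signals. Oocyte-stored transcripts, 6 of 8 tested, had a median of 0.011, from -0.74 for BTG4 to 0.33 for ZP3. BTG4 was above background on 4 of 4 arrays in 16-month RNA and on 2 in 12-month RNA. Primitive endoderm markers, 3 of 5 tested, had a median of 0.14. The part of these cell types and stored transcripts in the repair values was not tested.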

How the data were processed

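RNA of blastocysts was measured on 4 arrays of 2 channels. Total RNA was, per the labels' protocols, amplified and then labelled chemically with Cy3 or Cy5, which can alter the relative abundance of transcripts. The deposited scanner files hold spot and background intensity in both channels, per the file headers, with no background subtracted. The submitters' processing notes name limma. The authors' deposited value table holds log2 ratios; each column followed the Cy5 over Cy3 ratio of its own array (r 0.986 to 0.994), with medians of -0.016, -0.0019, -0.012 and -0.0063. Its background step is unknown, and it served as an alternative.

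Spots marked as ignored (13, 10, 64 and 817 probes on arrays 1 to 4) were left out, then median intensities were background-corrected with normexp (offset 50) and normalised by loess within arrays, with control spots at weight 0. The 1426 control or unlabelled spots were 3.15% of 45220. Levels are channel log2 values after Aquantile. A probe was tested when at least 4 of 8 channel signals exceeded the negative controls. Probes were fitted with limma 3.58.1 in R 4.3.3, with coefficients for age and dye, two-sided, adjusted by Benjamini-Hochberg over 30986 probes at 0.05. A value is the mean ± SD over arrays, with any dye effect still in the SD. The p-values rest on the spread between these arrays after the dye term, which limma moderates over all probes. They therefore do not follow the printed SD. The steps were tested on simulated data.

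Symbols came from the platform annotation. No genome was used, and probe positions and near-identical genes were not examined. Members and gene lists were chosen with earlier results of these data known. Per pathway, both ages are given on every array for the 2 genes with the smallest p and any with 1 sign on all arrays. All arrays lay on 1 slide. Age and the time of collection cannot be told apart. Alternatives changed the background, pixel summary, normalisation, filter, dye term, arrays and probe summary. Spots marked as ignored were left out of the background fit because keeping them lowered the r with the deposited table on array 3. That choice, and the alternative that keeps them, were made after seeing the data.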

Additional observations from a re-analysis of the deposited data

Results flagged for a closer look

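In 3 of the 43 tested repair genes, 1 array stood far from the other 3, by Dixon's test, which chance alone gives in about 1 in 20 groups, or 2.15 of 43. XRCC5 had a log2 ratio of 12 over 16 months of -1.16 on array 4, and the other arrays lay between -0.061 and -0.0019. Its 12-month signal on array 4 was not above background, so the size of that ratio is not exact. PMS2 had 0.44 on array 3, where the other arrays were on the 16-month side. FANCA had -0.30 on array 4, with 0.11, 0.13 and 0.10 on arrays 1 to 3, and it was above background in 3 of 4 signals of 16-month RNA and 2 of 4 of 12-month RNA. Its 12-month signal on array 4 was not above background, so the size of that ratio is not exact either.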

How the results depend on the processing

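In every alternative, 0 repair genes passed the adjusted threshold in limma, and the smallest adjusted p among them was 0.120, without array 3. Over all probes, leaving out 1 array in turn gave 0 to 383 calls, with 43 without array 3 (10 higher in 16-month RNA and 33 higher in 12-month RNA) and 383 without array 4 (127 and 256). Without array 3 or 4, the spread in the fit came from arrays 1 and 2 alone, which share a dye orientation. Without array 1 or 2 it came from arrays 3 and 4, and the calls were 0. The median repair ratio ran from -0.027 to 0.040 when 1 array was left out. Genes with 1 sign on all arrays numbered 3 with the authors' deposited log2 ratios, against 6. The split of 18 repair genes on the 16-month side and 25 on the 12-month side became 22 and 21 with mean pixels, 23 and 20 with median centring, 24 and 19 without array 2, and 25 and 18 without array 3. Mean pixels turned 8 signs: ERCC1 (-0.31, the largest move of the 8), XRCC6 (-0.00080), XPA (-0.0048), RAD21 (0.016), BRCA1 (-0.0087), PRKDC (0.0029), UNG (-0.047) and FANCA (-0.021), and gave CHEK2 0.037. PMS2 turned to -0.020 with median centring and to -0.059 with ignored spots kept in the background fit, a setting added later that lowered the r with the deposited table from 0.986 to 0.855 on array 3. Leaving out 1 array gave ratios of -0.69 to 0.032 for XRCC2, -0.13 to 0.14 for PMS2, -0.048 to 0.36 for ERCC5 and -0.078 to 0.22 for FANCD2. The causes were not tested. Each ratio pairs the ages within its array; by bull, no paired analysis was possible because the labels tie no bull to an array. The number of arrays, and for CHEK2 the signal over background, limit the precision.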

Other observations

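Damage tolerance, in which specialised polymerases copy past lesions, had 10 tested genes, 4 on the 16-month side and 6 on the 12-month side, with a median ratio of 0.014. REV1, which inserts cytosine opposite damage and recruits other polymerases, had ratios of -0.45, -0.27, -0.20 and -0.28 on arrays 1 to 4 and a mean of -0.30 ± 0.11 (SD, n = 4). POLH, the polymerase that copies past ultraviolet lesions, had -0.13, -0.43, -0.46 and -0.21. Both were higher in 16-month RNA on every array, as were 5.54% of all genes, and neither passed the adjusted threshold in limma. Of p53 and its damage targets, 8 were tested, 4 on each side, and GADD45B, a stress-induced gene, had the smallest p, with 0.30 ± 0.40. CDKN1A, the inhibitor of the cell cycle induced by p53, had 0.44, -0.038, 0.97 and 0.055. POLH and CDKN1A were named after their values were seen. The median of this group was -0.22, -0.043, 0.34 and 0.15 on arrays 1 to 4.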
